A study of Bos taurus with 20 samples.

Results

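Bone morphogenetic proteins (BMPs) are secreted ligands that bring together type I receptors (among them BMPR1A and BMPR1B) and a type II receptor (BMPR2), after which the type I receptor phosphorylates SMAD1, SMAD5 and SMAD9. These enter the nucleus with SMAD4 and switch on targets such as the ID genes, which encode inhibitors of basic helix-loop-helix transcription factors, while secreted antagonists such as noggin (NOG) and gremlin 1 (GREM1) bind the ligands outside the cell. In adipose tissue, BMP2 and BMP4 are known for the commitment of mesenchymal cells to the adipocyte lineage, and BMP7 for brown adipocytes. The 10 genes described here were chosen by symbol from the 33063 named genes of the table of raw counts. They were the ligands BMP2, BMP4, BMP6 and BMP7, the receptors BMPR1A, BMPR1B and BMPR2, the antagonists GREM1 and NOG, and the target ID1, and all 10 were found in the table.

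RNA was sequenced from 20 clones of bovine mesenchymal stem cells (MSC). Each was grown from a single cell, sorted from an MSC culture that had been passaged at least 1 time. The cultures were derived from visceral fat of Holstein Friesian x Aberdeen Angus calves a few months old. Every clone was expanded in growth medium with serum and basic fibroblast growth factor and gave 1 library before any differentiation. The 10 adipogenic (A) clones had made adipocytes in both of their differentiation tests and were picked as those that differentiated best, and the 10 non-adipogenic (N) clones had failed the first test. Animals 17 and 20 gave 1 A and 1 N clone each, and animals 22 and 23 gave 4 A and 4 N clones each, so that clones of an animal share their donor, a clone is a single cell's progeny, and p-values measure the spread between clones of these 4 animals. After sorting, part of the medium was conditioned medium from MSC cultures of the same animal, and its content of BMP ligands and antagonists was not measured here.

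Levels are CPM, the counts of a gene as a part of all counts of the library, scaled by the trimmed mean of M-values (TMM), and are compared only between clones of the same gene, since no exon lengths were used. Total counts on named genes lay between 14615493 and 43111345 per clone, with medians of 16112862 in A and 16316703.5 in N clones. The MSC markers ITGB1, NT5E, CD44, THY1 and PDGFRA were detected in both groups. Their summed level ran from 2542 to 4615 CPM in N clones and from 2799 to 4920 CPM in A clones. The sum rested mostly on ITGB1 and CD44, with means of 2201 and 702 CPM in N clones. In N clone 22-5, NT5E and THY1 were only at 0.508 and 0.395 CPM, beside N medians of 83.2 and 50.1 CPM. Clones 22-5 and 22-9 of the N group stood apart by mesothelial and keratin genes, such as KRT8, at 4779 and 2727 CPM in these clones and at most 2.83 CPM in the other N clones. Results that rest on these 2 clones are given with and without them.

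Of the 10 genes, 9 passed the filter on low counts, as did 12900 genes in all. In edgeR's quasi-likelihood test with the animal as a block and Benjamini-Hochberg adjustment over all genes tested, 2 of the 9 had an adjusted p under 0.05. BMPR2 was higher and ID1 was lower in A clones. This is 22.2% of the 9 genes, beside 20.6% of all genes tested, with 10.3% higher and 10.3% lower in A clones, so the share is near that of all genes. The median log2 difference was -0.69 over the 9 genes and -0.01 over all genes tested. That median was the value of BMP2 alone, which was not called and was 0.052 without N clones 22-5 and 22-9.

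**Figure D1:**
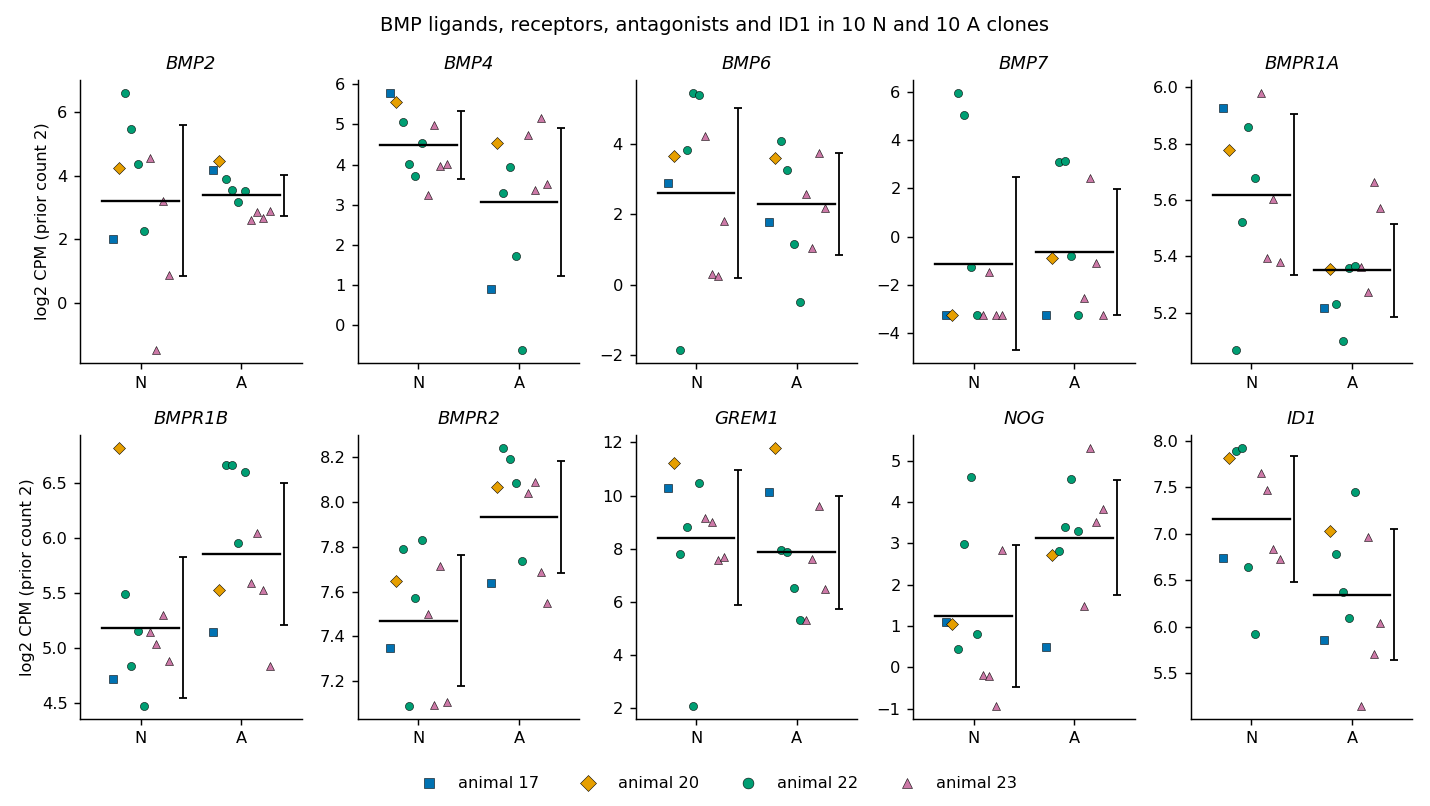
Levels of the 10 genes in each clone, as log2 CPM with a prior count of 2 (y axis, its own scale for each gene), for N and A clones (x axis). Points are clones, with the shape and colour giving the animal, thick lines are means and thin bars are 1 SD over 10 clones. BMPR2 points sit higher and ID1 points lower in A clones, while the ligands, GREM1 and NOG spread over several log2 units within a group.

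Among the ligands, BMP4 had the lowest A clones relative to the N clones and did not pass the test over all genes. BMP4 was at 9.32 to 55.2 CPM in N clones (median 19.6) and at 0.548 to 35.7 CPM in A clones (median 10.8). The 3 lowest clones, A 22-121, A 17-57 and A 22-27, were at 0.548, 1.77 and 3.22 CPM and lay below every N clone, while the other 7 A clones overlapped the N clones. The difference of A from N was -1.02 in log2 units (standard error 0.56, adjusted p = 0.203), and with single clones left out it ran from -1.22 to -0.71. The exact permutation test of log2 CPM, two-sided and within animals, gave an unadjusted p of 0.0448. Animals 17, 20, 22 and 23 had log2 differences of -4.88, -1.02, -2.24 and 0.15.

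BMP2 varied widely between N clones. It ran from 0.253 CPM in clone 23-22 to 98.1 CPM in clone 22-5 among the N clones, with 43.8 CPM in clone 22-9 and a median of 13.9 CPM, and from 5.96 to 22.0 CPM in A clones, with a median of 10.2 CPM. All A clones therefore lay within the range of the N clones, of which 3 were above and 4 below every A clone. The fitted difference was -0.69 (standard error 0.64, adjusted p = 0.459) and turned to 0.052 (adjusted p = 0.962) without clones 22-5 and 22-9. The mean difference of log2 CPM within animals was 0.17 (exact permutation p = 0.809, unadjusted), so that the fit and the mean of the logs differed in sign.

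BMP6 also overlapped throughout. It was at 0.169 to 44.0 CPM in N clones (median 9.91) and at 0.609 to 16.9 CPM in A clones (median 5.11). The highest values were those of clones N 22-17 and N 22-18, at 44.0 and 41.7 CPM, and the lowest that of N 22-5, so that both ends of the range came from N clones of animal 22. The difference was -0.81 (standard error 0.77, adjusted p = 0.471), and the mean difference of log2 CPM within animals was -0.30. With single clones left out the fitted value ran from -1.09 without A 23-68 to -0.38 without N 23-10, and without animal 22 it was -0.14.

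BMP7 was left out of the test by the filter, since it was near 0 in most clones. It had 0 counts in 6 N and 3 A clones, and a count of 0 allows up to 3 counts in a library by counting error alone. It had 1114 counts in N 22-5, 556 in N 22-9, 234 in A 22-11, 139 in A 22-16 and 86 in A 23-62, which is 62.9, 33.4, 8.46, 8.75 and 5.27 CPM. The remaining clones had at most 0.460 CPM. A and N clones thus did not separate by BMP7, and the clones with BMP7 came from both groups and from animals 22 and 23. Without the filter its log2 difference was 0.50 (standard error 1.93, adjusted p = 0.892), and the exact permutation test within animals gave an unadjusted p of 0.707.

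The 5 clones with the most BMP7 were also those with the most LRRN4, KRT8 and KRT19. LRRN4, a mesothelial marker, was at 700.5 and 637.9 CPM in N 22-5 and N 22-9, at 119, 52.1 and 28.9 CPM in A 22-11, A 22-16 and A 23-62, and at most 3.67 CPM in the other clones. Over the 20 clones the log2 level of BMP7 correlated with that of LRRN4 at r = 0.96, of KRT8 at 0.92 and of KRT19 at 0.91, and with those of KRT18, MSLN, BNC1, UPK3B and WT1 at 0.72, 0.70, 0.65, 0.45 and 0.45. Some mesothelial genes were high without BMP7, as WT1 was at 148, 177 and 137 CPM and BNC1 at 27.7, 37.7 and 39.3 CPM in N clones 23-10, 23-22 and 23-74, where BMP7 was at most 0.253 CPM. These points share 4 animals, and the 5 clones named lie apart from the rest, so the coefficients describe these libraries. The summed level of the 8 mesothelial genes ran from 8.82 to 9419 CPM in N clones (median 173) and from 8.58 to 1131 CPM in A clones (median 60.8). Of the 7 tested, 1 (MSLN) was called, lower in A clones, or 14.3% beside 20.6% of all genes tested. WT1, BNC1 and LRRN4 were at 0 in all 4 clones of animals 17 and 20. The part of such cells in the level of BMP7 was not tested, and in bulk RNA fewer cells of a type and less RNA per cell cannot be told apart.

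**Figure D2:**
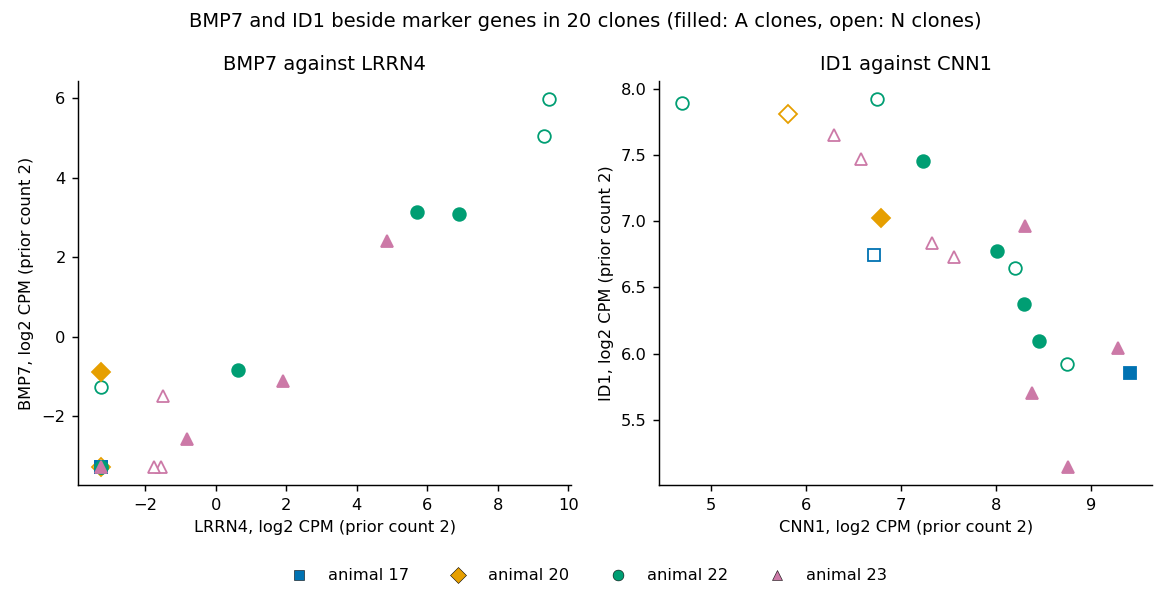
BMP7 against the mesothelial gene LRRN4 (left) and ID1 against the smooth muscle gene CNN1 (right) in 20 clones, both axes as log2 CPM with a prior count of 2. Each point is a clone, filled for A and open for N, with shape and colour for the animal. The 5 clones with BMP7 above 5 CPM are the 5 at the right of the left panel, and clones with more CNN1 sit lower for ID1 in the right panel.

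Among the receptors, BMPR2, the type II receptor, was higher in A clones. It was at 136 to 228 CPM in N clones (median 186) and at 187 to 303 CPM in A clones (median 266). The group means were 180.3 ± 35.5 CPM in N and 247.7 ± 41.9 CPM in A (SD over the 10 clones of each). The ranges overlapped, with 6 A clones above every N clone and 5 N clones below every A clone. The log2 difference was 0.46 (standard error 0.12, adjusted p = 0.0126), or 1.37-fold, and the exact permutation test gave an unadjusted p of 0.00133.

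The BMPR2 difference had the same sign in each animal, at 0.29, 0.42, 0.49 and 0.49 in animals 17, 20, 22 and 23. It stayed past the threshold in all 20 fits without 1 clone, where it ran from 0.40 to 0.50, and without clones 22-5 and 22-9 (0.42, adjusted p = 0.0267). It did not pass without animal 22 (0.44, adjusted p = 0.0742), without animal 23 (0.43, adjusted p = 0.159) or with counts summed per animal and condition (0.42, adjusted p = 0.277). The sizes under these settings were close to that of the full fit.

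The type I receptor BMPR1B had higher mean levels in A clones and missed the threshold. It was at 22.1 to 112 CPM in N clones (median 34.0) and at 28.4 to 101 CPM in A clones (median 54.9). The highest of all 20 clones was N 20-15, at 112 CPM, while the next N clone was at 44.7 CPM and 8 A clones lay above that value. The log2 difference was 0.70 (standard error 0.25, adjusted p = 0.0552, exact permutation p = 0.0240 unadjusted). It was -1.29 in animal 20 and 0.43, 1.48 and 0.41 in animals 17, 22 and 23.

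BMPR1B passed the threshold in 3 of the 20 fits without 1 clone. Without N 20-15 the difference was 0.90 (adjusted p = 0.00886), and without A 20-106, the other clone of animal 20, it was 0.90 (adjusted p = 0.00886). With the animal as a block, both fits take animal 20 out of the comparison, so they are not separate results. Without A 23-108 the difference was 0.79 (adjusted p = 0.0363). It was also called by the DESeq2 Wald test (0.71, adjusted p = 0.0183). Without animal 22 the difference was 0.18 (adjusted p = 0.682), and without N clones 22-5 and 22-9 it was 0.60 (adjusted p = 0.158).

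BMPR1A, the other type I receptor, varied least of the 10 genes, by 1.89 times between its lowest and highest clone. It was at 33.4 to 63.1 CPM in N clones (median 49.8) and at 34.2 to 50.6 CPM in A clones (median 40.8). The difference was -0.28 (standard error 0.11, adjusted p = 0.0684), with an exact permutation p of 0.0352 unadjusted. The mean was lower in A clones in all 4 animals, by values between -0.71 in animal 17 and -0.12 in animal 23. The lowest clone of all was N 22-5, and without it the difference was -0.33 (adjusted p = 0.0272).

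Of the antagonists, GREM1 had the widest range of the 9 genes tested, by 847 times between its lowest and highest clone. It was at 4.17 to 2384 CPM in N clones (median 480.2) and at 39.4 to 3528 CPM in A clones (median 216). The clones of animals 17 and 20 were high in both groups, with 1254 and 1129 CPM in the N and A clones of animal 17 and 2384 and 3528 CPM in those of animal 20. Clone N 22-17 alone was at 4.17 CPM, with the next N clone at 192 CPM. The difference between A and N was -0.83 (standard error 0.71, adjusted p = 0.412). With single clones left out it ran from -1.38 without A 23-68 to -0.34 without N 22-18, and it was -0.18 without the animal as a block.

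NOG, the noggin gene, had higher levels in most A clones. It was at 0.420 to 24.1 CPM in N clones (median 1.81) and at 1.29 to 39.3 CPM in A clones (median 10.0). Of the N clones, 7 were at or below 2.02 CPM, and of the A clones 1, A 17-57, was. The difference was 1.48 (standard error 0.73, adjusted p = 0.152). The exact permutation test within animals gave an unadjusted p of 0.0132, and limma-voom called the gene (1.91, adjusted p = 0.0426) while DESeq2 did not (adjusted p = 0.0520). The N clone with the most NOG was 22-17, and without it the difference was 2.06 (adjusted p = 0.0376). Without animal 23 it was 0.55 (adjusted p = 0.688). By animal the difference was -0.60, 1.66, 1.303 and 3.16 in animals 17, 20, 22 and 23.

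ID1, a direct target of phosphorylated SMAD1 and SMAD5, was lower in A clones by a margin that depended on the clones used. It was at 60.7 to 242 CPM in N clones (median 146) and at 35.4 to 175 CPM in A clones (median 75.6). The means were 156.9 ± 66.7 CPM in N and 90.2 ± 43.5 CPM in A (SD over the 10 clones of each). The 5 highest N clones, 22-9, 22-5, 20-15, 23-10 and 23-22, lay above every A clone, and the A clones 23-14, 23-68 and 17-57 below every N clone. The log2 difference was -0.83 (standard error 0.28, adjusted p = 0.0449, exact permutation p = 0.0172 unadjusted), or 0.562-fold.

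The ID1 difference was negative in each animal, at -0.89, -0.79, -0.42 and -1.21 in animals 17, 20, 22 and 23. Its call was kept in 4 of the 20 fits without 1 clone, those without N 22-17 (-0.91, adjusted p = 0.0322), N 22-18 (-0.95, adjusted p = 0.0133), A 22-121 (-0.96, adjusted p = 0.0204) and A 23-62 (-0.97, adjusted p = 0.0270). In the other 16 fits the adjusted p was up to 0.0888 and the difference stayed between -0.87 and -0.73. Without clones 22-5 and 22-9, which were the N clones with the most ID1, it was -0.61 (adjusted p = 0.196).

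Other BMP pathway genes were counted from a list of 49, of which 46 were in the table and 27 passed the filter. Of the 27, 11 were called, 4 higher and 7 lower in A clones, which is 40.7% beside 20.6% of all genes tested. As this list was chosen with earlier results of these data known, the share describes the list only. It does not test whether BMP pathway genes were called more often than other genes. Some of the 11 also act outside BMP signalling, as described below. All 11 stayed called in each of the 20 fits without 1 clone, and of the 11 only SMAD9 lost its call without clones 22-5 and 22-9 (-0.71, adjusted p = 0.0807). Without animal 22, ID4 lost its call (-1.05, adjusted p = 0.142). Without animal 23 all 11 lost theirs, the lowest adjusted p being that of BMP1 (0.90, adjusted p = 0.0539), and 32 genes in all were called. None of the 11 other ligands (BMP3, BMP5, BMP8A, BMP8B, BMP10, BMP15, GDF2, GDF5, GDF6, GDF7 and GDF10) was tested, since none had more than 14 counts in any clone. BMP15 and GDF2 had 0 counts in every clone.

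The targets held the most calls, with 5 of 8 lower and 0 higher in A clones, or 62.5% beside 20.6% of all genes tested. Like the share of the whole list, that of each part describes the genes listed only. The 5 targets called were ID2, ID3, ID4, SMAD6, which encodes an inhibitory SMAD, and ATOH8, a helix-loop-helix factor. ID2 went from 214.9 ± 86.6 CPM in N to 118 ± 45.9 CPM in A clones (log2 difference -0.84, standard error 0.17, adjusted p = 0.00446). ID3 went from 184 ± 33.0 to 119 ± 39.4 CPM (-0.63, standard error 0.16, adjusted p = 0.0118). In ID3, 8 of the 10 A clones were below every N clone.

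ID4 went from 85.9 ± 50.3 CPM in N to 39.1 ± 23.8 CPM in A clones (-1.07, standard error 0.30, adjusted p = 0.0206), and SMAD6 from 84.4 ± 22.3 to 49.5 ± 12.3 CPM (-0.76, standard error 0.16, adjusted p = 0.00521). ATOH8 had the largest difference of the targets, from 51.8 ± 30.0 CPM in N to 14.2 ± 11.4 CPM in A clones (-1.78, standard error 0.48, adjusted p = 0.0173). The lowest N clone for ATOH8 was at 29.1 CPM and 9 of the 10 A clones were below it, the exception being A 22-121 at 37.9 CPM. All of ID1, ID2, ID3, ID4, SMAD6 and ATOH8 had lower means in A clones in each of the 4 animals. The targets that were not called were SMAD7, at 0.24 (adjusted p = 0.513), MSX1, at 0.41 (adjusted p = 0.371), and MSX2, at 1.18 (adjusted p = 0.0771).

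**Figure D3:**
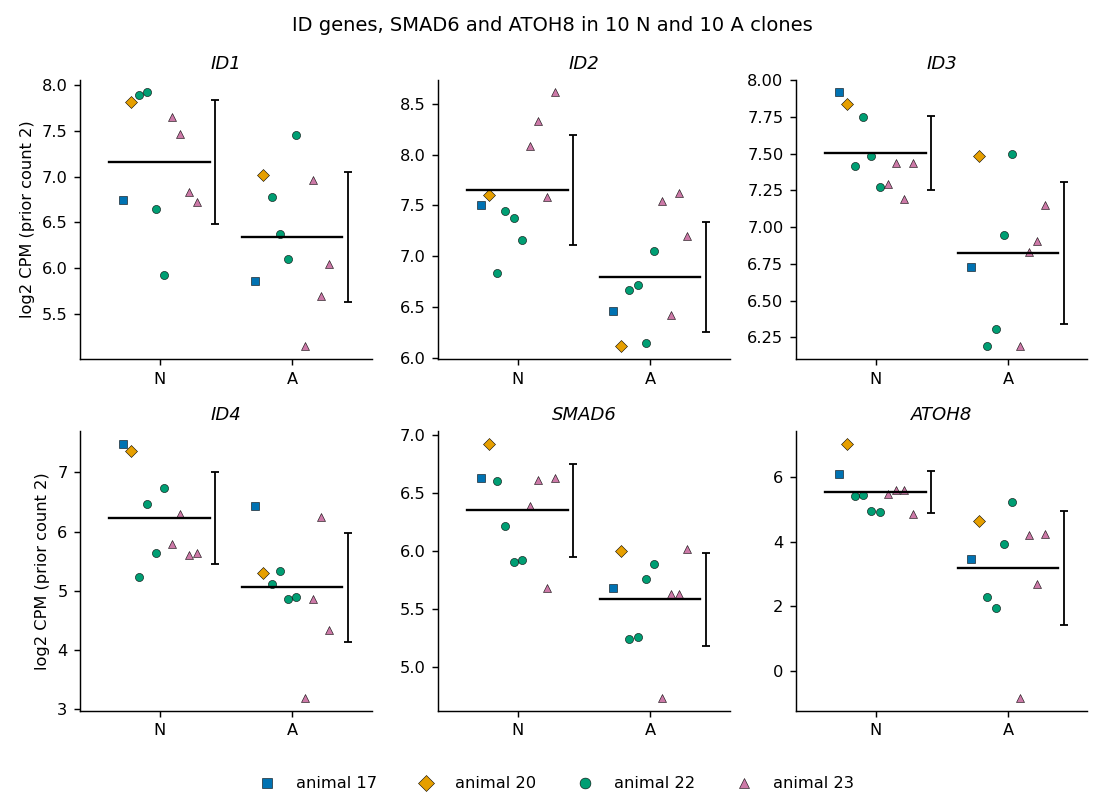
Levels of ID1 and the 5 other target genes that were called, as log2 CPM with a prior count of 2 (y axis, its own scale for each gene) in N and A clones (x axis). Points are clones with shape and colour for the animal, thick lines are means and thin bars are 1 SD over 10 clones. The mean line is lower in A clones in all 6 panels, with 9 of 10 A clones under every N clone for ATOH8 and 8 of 10 for ID3.

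Among the SMADs and SMURFs, 1 of 6 was higher and 2 were lower in A clones, or 50% called beside 20.6% of all genes tested. SMAD9, a receptor-regulated SMAD of the BMP branch, was lower, at 65.9 ± 22.9 CPM in N and 35.3 ± 10.2 CPM in A clones (-0.91, standard error 0.24, adjusted p = 0.0154). SMAD4, the partner of all receptor-regulated SMADs, was lower by a smaller amount (-0.36, standard error 0.08, adjusted p = 0.00507). SMURF2, a ubiquitin ligase that acts on SMADs and receptors, was higher (1.01, standard error 0.24, adjusted p = 0.0101). SMAD1 was at -0.81 (adjusted p = 0.0883), SMAD5 at 0.04 (adjusted p = 0.822) and SMURF1 at -0.08 (adjusted p = 0.713).

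Of the 7 other receptors and co-receptors tested, 1 was called, or 14.3% beside 20.6% of all genes tested. The gene called was RGMB, a co-receptor for BMP ligands, which was at 51.6 ± 43.7 CPM in N and 119 ± 59.2 CPM in A clones (1.25, standard error 0.32, adjusted p = 0.0142). BAMBI, a decoy receptor, was at -1.67 (standard error 0.62, adjusted p = 0.0660), and at -0.54 (adjusted p = 0.590) without N clones 22-5 and 22-9, in which it stood at 24.3 and 48.4 CPM. The type I receptor ACVR1 was at 0.37 (adjusted p = 0.153), and ACVRL1, ACVR2A, ACVR2B and ENG were between -0.34 and 0.36.

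Of the 6 other antagonists and extracellular modulators tested, 2 were called, or 33.3% beside 20.6% of all genes tested. Both were higher in A clones. The fitted differences of all 6 were positive, as were those of 6290 of all 12900 genes tested, but 3 of the 6 were negative in some animals. BMP1, a metalloprotease that cleaves chordin and procollagen and is not a BMP ligand despite its name, went from 179 ± 55.3 CPM in N to 365 ± 83.9 CPM in A clones (1.04, standard error 0.14, adjusted p = 0.000476). FSTL3, a follistatin-like inhibitor of activins, went from 128 ± 43.7 to 284 ± 109 CPM (1.13, standard error 0.24, adjusted p = 0.00489). For both genes, 9 of 10 A clones were above every N clone. CHRD, CHRDL1, TWSG1 and FST were at 0.63, 2.16, 0.32 and 0.82, with adjusted p-values of 0.208, 0.0926, 0.113 and 0.185. In animals 17 and 20, CHRD was at -2.02 and -0.12 and CHRDL1 at -3.96 and -0.81, and in animal 22 FST was at -0.73. The difference of CHRDL1 was 0.55 without the animal as a block and 0.94 under limma-voom. BMP1, FSTL3 and TWSG1 were positive in each animal. BMPER, a secreted BMP-binding protein, was left out by the filter, with 0 counts in 9 N clones and 3 in the other, and between 0 and 81 counts in A clones. It was called when no filter was used (adjusted p = 0.00478).

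Of 8 proliferation markers, 5 (MKI67, TOP2A, CDK1, BUB1 and CCNA2) were called, all lower in A clones, or 62.5% beside 20.6% of all genes tested. The summed level of all 8 ran from 108 to 544 CPM in N clones (median 284) and from 16.7 to 327 CPM in A clones (median 128). Of 7 smooth muscle and pericyte markers tested, 2 (MYH11 and CSPG4) were higher in A clones, or 28.6% beside 20.6% of all genes tested, and the list had a summed level of 1086 to 10053 CPM in N and 4366 to 11707 CPM in A clones. The part of either in the differences of the BMP genes was not tested. Of the 3 adipocyte markers tested, 1 (PLIN1) was called, higher in A clones (0.53, adjusted p = 0.0456), or 33.3% beside 20.6% of all genes tested. FABP4 was at 0.94 (adjusted p = 0.357) and CIDEC at -0.64 (adjusted p = 0.129). The summed level of the adipocyte list was at most 31.4 CPM in N and 29.3 CPM in A clones. In edgeR's fit without the filter, ADIPOQ was higher in A clones (2.75, adjusted p = 0.0175), at no more than 1.52 CPM. In that fit LEP (adjusted p = 0.0734) and PLIN1 (adjusted p = 0.0756) were not called. Of the endothelial markers 0 of 3 were called by edgeR and by limma-voom and 1 by DESeq2, with 1 at an unadjusted p under 0.05 by each, and their summed level ran from 1.07 to 41.3 CPM in N and from 5.12 to 23.7 CPM in A clones. Of the macrophage and leukocyte markers the 1 tested, CD68, was higher in A clones, and 1 gene gives no share to set beside that of all genes. In edgeR's fit without the filter, CSF1R (3.13, adjusted p = 0.00268) and CD14 (2.75, adjusted p = 0.0417) were also higher in A clones. AIF1 (adjusted p = 0.208) and PTPRC (adjusted p = 0.381) were not called in it. For CSF1R all 10 A clones were above every N clone, at 0.476 to 2.38 CPM.

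Across the 20 clones, the log2 level of ID1 varied with some of these genes and not with others. It correlated with that of CNN1 at r = -0.86, of ACTA2 at -0.78, of SMAD9 at 0.81 and of ATOH8 at 0.73. After each level was centred within animal and condition these were -0.76, -0.71, 0.78 and 0.56. With MKI67 the correlation was 0.49, and 0.75 after centring. Of the other smooth muscle and pericyte markers, MYH11, MCAM and RGS5 had values of -0.44, -0.21 and -0.03. Of the other targets, ID2 had 0.18 (-0.19 after centring), ID4 0.35 (0.04 after centring), MSX1 -0.26, MSX2 -0.16 and SMAD7 -0.09. Values of ID1 with the remaining listed markers and targets, among them TAGLN, DES, CSPG4, ID3 and SMAD6, are not reported here. CNN1 and ACTA2 were not themselves called between A and N clones by edgeR (adjusted p = 0.0521 and 0.334). BMPR2 correlated with ID2 at -0.76, and NOG with MSX2 at 0.77. Between the 10 genes themselves, the pair with the highest value before centring was BMPR1B and BMPR2, at 0.62, and 0.41 after centring, while after centring BMP6 and BMPR1A had the highest, at 0.67. These values describe 20 clones that share 4 animals and the scaling of their libraries.

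The genes whose levels over the 20 clones were most like those of ID1 were MYB (r = 0.89), PIK3IP1 (0.86) and EHMT2 (0.84). After centring within animal and condition the values were 0.84, 0.77 and 0.82. For BMPR2 the most similar genes were POLR3A, ABL1 and TRIM56 (0.87, 0.87 and 0.86), at 0.73, 0.77 and 0.75 after centring. These genes were called in the direction of ID1 and of BMPR2. They were picked over the same clones with the difference between A and N left in, so their calls follow in part from that choice. For GREM1 the most similar genes were OSR2, DLX4 and WISP2 (0.72, 0.71 and 0.71), at 0.45, 0.66 and 0.47 after centring. Those for BMP4 included IGFBP4 (0.79, and 0.63 after centring) and EPN3 (0.77, and 0.82). Those for NOG included FAM89A (0.79, and 0.58 after centring) and TRPM6 (0.78, and 0.50). BMPR1B was most like GAS1 (0.87) and BMPR1A like DBT (0.87), while the highest values for BMP6 and BMP2 were 0.78 (HILS1) and 0.76 (LOC107132921). In the same order, the values after centring were 0.71, 0.81, 0.88 and 0.75.

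The variation that condition and animal did not take holds the spread between clones and any condition effect that differed between animals. This remainder was 41.9% for BMPR2, 53.3% for BMPR1B, 57.8% for ID1, 57.9% for GREM1 and 57.9% for NOG. Its median over all genes tested was 62.3%. It was 63.1% for BMP4, 65.3% for BMPR1A, 70.6% for BMP2 and 93.2% for BMP6. The SD of the remainder was at percentile 98.6 of all genes tested for BMP6, 98.1 for GREM1, 96.0 for BMP2, 95.6 for NOG and 94.2 for BMP4. It was at percentile 79.0 for ID1, 74.2 for BMPR1B, 33.2 for BMPR2 and 27.8 for BMPR1A. The tested ligands and antagonists thus lay among the genes with the most variation left after condition and animal. BMPR2 and BMPR1A lay among those with less left than most. Condition took 44.5% of the variation of BMPR2 and 27.9% of that of ID1, beside a median of 11.3% over all genes tested. Genes that were not called came near ID1, at 28.8% for NOG, 26.9% for BMPR1A, 23.1% for BMPR1B and 21.7% for BMP4. For GREM1, BMP6 and BMP2 condition took 1.51%, 0.64% and 0.28%. The animal took 40.6% of the variation of GREM1, beside a median of 18.8%.

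In animals 22 and 23, the only ones with more than 1 clone per condition, the difference between A and N was compared between animals on 16 clones. By edgeR's test of the interaction, 0 of the 9 genes passed at an adjusted p under 0.05, beside 0.031% of all genes tested, and 1 had an unadjusted p under 0.05. Limma-voom gave 0 of 9 and 2 unadjusted. The gene with the small unadjusted p was BMPR1B, which went from 32.7 ± 9.68 CPM in N to 90.1 ± 18.9 CPM in A clones of animal 22, without overlap, and from 34.2 ± 4.17 to 47.0 ± 15.3 CPM in animal 23 (SD, n = 4 each). Its interaction was -1.004 in log2 units (standard error 0.36, unadjusted p = 0.0132 and adjusted p = 0.446 in edgeR's fit over all genes).

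Levels were also compared between these animals with the condition in the fit. By edgeR's test, 0 of the 9 genes differed between animal 23 and animal 22, beside 0.108% of all genes tested, with 1 at an unadjusted p under 0.05 by edgeR and 1 by limma-voom, which also called 0. The lowest p was that of BMP2, which was lower in animal 23 by 1.54 log2 units (a difference of -1.54, standard error 0.69, adjusted p = 0.376 in edgeR's fit over all genes). BMP2 was at 4.73 to 98.1 CPM in the N clones of animal 22 and at 0.253 to 23.6 CPM in those of animal 23, and at 8.93 to 14.8 and 5.96 to 7.40 CPM in their A clones. The A clones of the 2 animals did not overlap for BMP2, while their N clones did.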

How the data were processed

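RNA-seq libraries of 10 A and 10 N clones were used, grouped by the sample labels. The deposited table holds raw counts of every gene in each clone, made by the authors. Per the submitters' processing notes, reads were processed with bcl2fastq 2.20, Trimmomatic 0.36, STAR 2.5.2b and featureCounts of Subread 1.5.2 on ARS-UCD1.2. The library kit was directional, but the strand setting of the counting was not given in the sources used here, so reads of overlapping genes may be shared. Of the 10 genes, BMP7 overlaps a microRNA gene in the RefSeq annotation. The 1 row without a gene name, with 0.113% to 0.333% of the counts of a clone, was left out, and 0 columns came from outside the series.

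Counts were fitted with edgeR 4.0.16 in R 4.3.3 (TMM, default filter on condition, robust quasi-likelihood F test, animal as a block, Benjamini-Hochberg adjustment over all genes tested, called at an adjusted p under 0.05). Standard errors were derived from the fold change and its F statistic. The pairing comes from the animals. Within animals 17, 20, 22 and 23 the A and N clones deviated together from the means of their conditions (r = 0.253, 0.193, 0.241 and 0.440). A prior count of 2 was added for log2 CPM. Exact permutation tests were two-sided over all 19600 arrangements within animals. Shares of variation came from sums of squares of log2 CPM for condition and animal, and the remainder was not split into clones and interaction. The fit was tested on simulated data.

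The alternatives were no block, other normalizations, other filters, DESeq2 1.42.0, limma-voom 3.58.1, no robust dispersion, clones or animals left out, and counts summed per animal. The genes and lists were chosen with earlier results of these data known. Shares of a list called therefore describe that list and do not test whether such genes were called more often than others. Named genes were the 10 genes, the pathway and marker lists, and the 3 genes most correlated with each gene tested over the 20 clones, some of which are not reported here. The limit of 3 counts given for a count of 0 covers counting error only.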

Additional observations from a re-analysis of the deposited data

Results flagged for a closer look

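In 74 groups of 10 clones (37 BMP pathway genes tested or described, in A and in N clones), the highest or lowest clone was set against the others by Dixon's ratio, its gap to the nearest clone divided by the range, on log2 CPM, against the 95% critical value for 10 clones. This singled out 6 groups, where chance gives about 3.7 at 1 in 20. Among the 10 genes, BMPR1B was high in N 20-15 (ratio 0.568, 112 CPM beside 44.7 CPM in the next clone), and GREM1 was low in N 22-17 (ratio 0.602, 4.17 CPM beside 192 CPM). Among the other pathway genes, the ratio was 0.535 for the highest clone of ACVR2A, N 17-23, at 56.4 CPM beside 24.8 CPM. It was 0.620 for the lowest clone of ACVR2B, A 22-121, at 0.487 CPM beside 1.67 CPM, and 0.607 for the lowest clone of ENG, N 22-5, at 19.1 CPM beside 164.5 CPM. It was 0.584 for the highest clone of SMAD1, A 20-106, at 113 CPM beside 34.8 CPM.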

How the results depend on the processing

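Of the values recomputed under alternatives, 456 kept their direction and their side of the threshold, 27 kept the direction and lost the call, 10 gained one and 17 changed sign. The number of the 10 genes called was 2. It was 1 with no replicate block (the animal left out), with no filter on low counts and without animal 17, and 0 without animal 22, without animal 23 or with counts summed per animal and condition. It was 3 with the DESeq2 Wald test, where BMPR1B was added, and 3 with limma-voom, where NOG was added. The calls over all genes moved too. They were 2658 of 12900 in the main fit, 3528 with the DESeq2 Wald test, 2729 with limma-voom and 2168 with no replicate block. Without animal 22 they were 1471 of 12816, without animal 17 2352 of 12904, and with no filter 2755 of 23383. The number of the 10 genes called ran from 1 to 3 with single clones left out, and with no replicate block ID1 was the gene lost (adjusted p = 0.0639). The number of other pathway genes called was 11, ran from 11 to 14 with single clones left out, and was 0 without animal 23, where 32 genes in all were called, and 0 with summed counts, where 0 were. Leaving out an animal or summing uses fewer samples.

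BMP2 turned to 0.12 without animal 22, to 0.052 without clones 22-5 and 22-9, and to 0.14 with summed counts. Under limma-voom the interaction was -0.0068 for BMPR2 and -0.76 for GREM1, and with single clones left out it ran from -0.092 to 0.15 for BMPR2 and from -0.029 to 1.75 for GREM1. The difference of animal 23 from animal 22 was -0.25 for BMP4, 0.059 for BMPR1B and -0.50 for GREM1 in N clones alone and 0.44 for NOG in A clones alone. None of these passed the threshold, and the cause was not tested. Low counts limit BMP7, BMPER and the other ligands.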
